A study of Mus musculus with 10 samples.

Results

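The estrogen-related receptors (*Esrra*, *Esrrb* and *Esrrg*), the PGC-1 coactivators (*Ppargc1a* and *Ppargc1b*), their muscle partner *Perm1*, and the mitochondrial regulators *Nrf1* and *Tfam* were followed in regenerating skeletal muscle of mice lacking miR-501. These 8 genes were chosen by name out of 25700 genes counted, and all 8 were found. RNA from the tibialis anterior (TA) muscle of 5 Pax7Cre and 5 miR-501KO male C57BL/6 mice, all 12 weeks old, was sequenced at day 6 after cardiotoxin (CTX), a snake venom toxin that kills muscle fibers and sets off their regeneration. The 5 Pax7Cre mice, labelled wild type, carried the Pax7 Cre driver alone, and the 5 miR-501KO mice, labelled miR-501 -/-, carried the same Cre together with a floxed miR-501 allele on their only X chromosome. All 10 muscles were injured, so no uninjured level is part of the comparison. This Cre is not inducible and is driven from the *Pax7* locus, so excision is expected in the myogenic lineage and the fibers it forms, while the other cells of the muscle keep the miRNA. Mature miRNAs are not measured in libraries made from mRNA, so the loss of miR-501 itself was not checked here.

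The estrogen-related receptors are orphan nuclear receptors that bind DNA without a known natural ligand and take their activity from coactivators of the PGC-1 family. Together they switch on genes of the citric acid cycle, fatty acid oxidation and the respiratory chain, in muscle above all in oxidative fibers. NRF1 and the ETS factor GABPA act on nuclear genes of the respiratory chain and on *Tfam*, whose product enters the mitochondrion, packs its DNA and starts its transcription. *Esrrg* is the member that the study examined as a target of miR-501.

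A microRNA guides repression through its seed, bases 2 to 8, which pair with sites in the 3′ untranslated region (UTR) of an mRNA. The mature sequences (RefSeq, GRCm38.p6) of miR-501-3p and of both neighbours in the same host gene on the minus strand of chromosome X are printed to show which seeds they share, with the seed in capitals.
miR-501-3p (chrX:7241270-7241291): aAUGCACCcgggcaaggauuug
miR-500-3p (chrX:7237695-7237716): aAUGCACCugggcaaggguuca
miR-362-3p (chrX:7241984-7242005): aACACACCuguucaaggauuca
miR-500-3p has the seed of miR-501-3p, and miR-362-3p has another. The complement of the seed, GGTGCAT, occurs in an annotated 3′ UTR of 1496 of 21164 genes with one (7.07%), read on the strand of the gene. Of the 8 genes, *Esrrg* and *Ppargc1a* have it, each at 1 place (GRCm38, GENCODE M21), printed with 10 bases on either side and the match in capitals because they are the members that miR-501 could pair with by its seed.
*Esrrg* (chr1:188212268-188212274, plus strand): ttgaagggaaGGTGCATattaccacgg
*Ppargc1a* (chr5:51456173-51456179, minus strand): ttctacccagGGTGCATggcagttgtc
The *Esrrg* match begins at base 1129 of a 3′ UTR of 3746 bases and lies in 3 annotated transcripts. That of *Ppargc1a* begins at base 2001 of a 3′ UTR of 3930 bases and lies in 1 annotated transcript. The other 6 genes lack these letters in their annotated 3′ UTRs, of which the longest is that of *Tfam* with 3095 bases. A match of letters is a description and does not show that the miRNA binds there.

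A difference between the genotypes larger than the spread between mice was not detected for any of the 8 genes. Levels are given as CPM, the reads of a gene relative to the size of its library after TMM scaling. The quasi-likelihood test of edgeR was run across the 14410 genes with enough reads, with Benjamini-Hochberg adjustment. All 8 genes entered the test, and 0 of 8 passed an adjusted p of 0.05, where 0% of all genes tested passed. At an unadjusted p under 0.05 the edgeR test had 151 genes, 55 higher in miR-501KO mice (0.382%) and 96 lower (0.666%), and none of the 8 was among them. The log2 fold change, given throughout as miR-501KO over Pax7Cre, was negative for 7 of the 8 genes and positive for *Nrf1*. Their median was -0.054, beside -0.0042 over all genes tested. Both turned without Pax7Cre mouse 2, a mouse described in the next paragraph, to 6 positive and 2 negative values with a median of 0.066, beside -0.0029. The levels of the groups overlapped for every one of the 8 genes. The share of all tested genes with such overlap is not given here, so this does not set the 8 apart. These are levels in whole muscle, where fewer cells of a type and less RNA per cell cannot be told apart.

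Totals lay between 18609222 and 24753258 reads per mouse, and mitochondrial genes took 6.59% to 14.0% of them, a share to which 6 of 13 protein genes of the mitochondrial genome, counted at 0 to 2 reads per mouse, hardly contribute. Pax7Cre mouse 2 stood apart from the others: it had the highest mitochondrial share and the highest mature fiber score. This score is the mean log2 CPM of 24 genes of the adult fast fiber such as *Ckm*, *Pvalb* and *Atp2a1*, each centred on its mean over the 10 mice. It was 0.66 in Pax7Cre mouse 2 and between -0.50 and 0.06 in the other Pax7Cre mice, and between -0.14 and 0.31 in miR-501KO mice. The summed level of the same 24 genes was 51830 CPM in that mouse, against a lowest of 21085 CPM among Pax7Cre mice and 29801 to 39452 CPM in miR-501KO mice. Its summed level of 8 fibro-adipogenic progenitor genes was the lowest among Pax7Cre mice, 14103 CPM. Those of satellite cell (3683 CPM), endothelial (949 CPM) and adipocyte genes (370 CPM) were the highest among Pax7Cre mice. The results for the 8 genes are therefore given with and without this mouse. Since it is a control, leaving it out shifts the genotype difference upward for genes that go with the score.

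**Figure D1:**
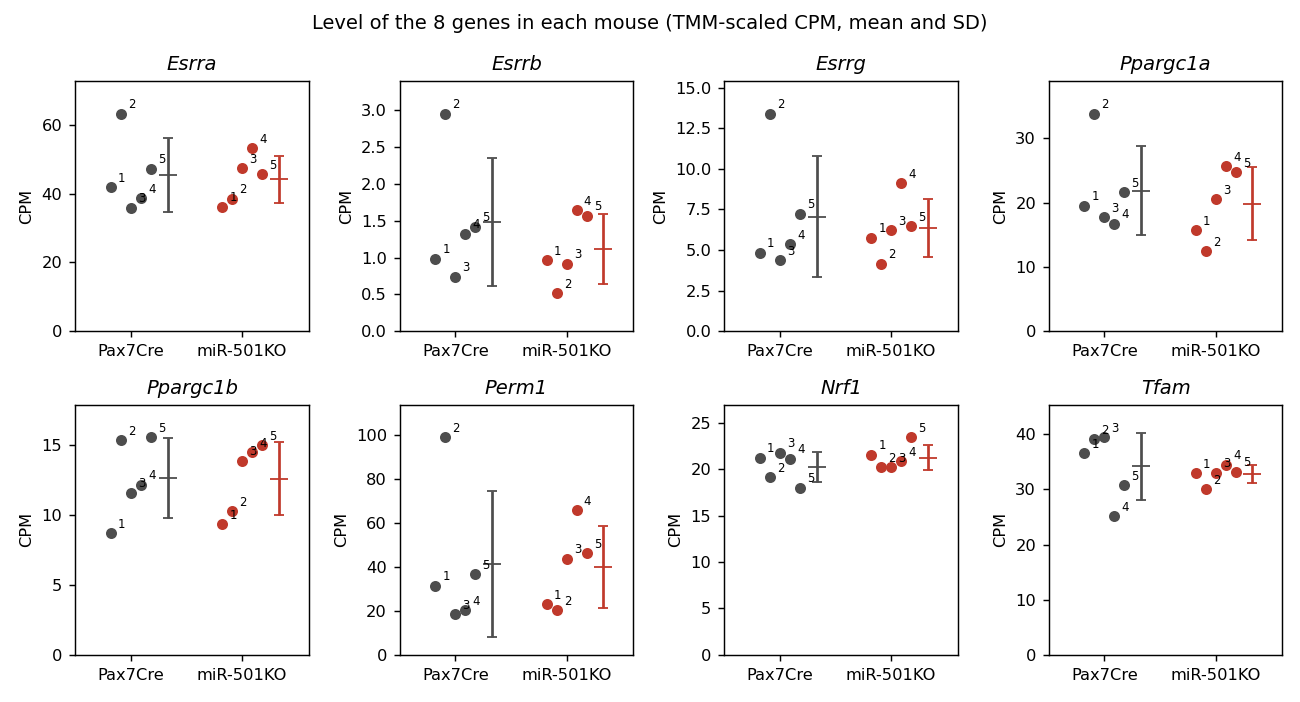
Level of each of the 8 genes in each mouse, as CPM on the vertical axis from 0, with Pax7Cre mice in grey and miR-501KO mice in red. Points are mice with their number, and bars give the mean and SD of 5 mice. For *Perm1*, Pax7Cre mouse 2 lies at 99.1 CPM and the other 9 mice between 18.5 and 66.0 CPM.

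*Esrrg* (ENSMUSG00000026610, chr1:187608791-188214885, plus strand) encodes ERRγ, the receptor most tied to oxidative fibers. Its level in Pax7Cre mice 1 to 5 was 4.84, 13.4, 4.38, 5.38 and 7.25 CPM. In miR-501KO mice 1 to 5 it was 5.76, 4.15, 6.20, 9.11 and 6.48 CPM. The highest mouse was a control and the lowest was a knockout. Of the other mice, 3 controls lay below the 4 knockouts, and Pax7Cre mouse 5 lay among them. The means were 7.05 ± 3.71 CPM in Pax7Cre mice and 6.34 ± 1.79 CPM in miR-501KO mice (SD, n = 5 each). Its log2 fold change was -0.15 (SE 0.294, adjusted p = 1.00 in the edgeR quasi-likelihood test), and its 95% interval reached from 0.58-fold to 1.40-fold. An exact two-sided permutation test of the CPM gave p = 0.778. Without Pax7Cre mouse 2 the mean of the controls was 5.46 ± 1.26 CPM (SD, n = 4) and the log2 fold change turned positive, to 0.21 (SE 0.205, 95% interval -0.23 to 0.65). *Esrrg* had 83 to 254 reads per mouse, and a difference inside these intervals is not excluded.

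*Esrra* (ENSMUSG00000024955, chr19:6910977-6921813, minus strand) encodes ERRα, the family member best known as a partner of PGC-1α. It was measured at 41.9, 63.3, 35.9, 38.6 and 47.2 CPM in Pax7Cre mice 1 to 5. The miR-501KO mice had 36.3, 38.5, 47.3, 53.1 and 45.6 CPM. Pax7Cre mouse 2 was at the top, 2 miR-501KO mice lay above the other 4 controls, and the rest lay among each other. *Esrra* had a log2 fold change of -0.039 (SE 0.151), and one of 0.11 (SE 0.115) without that mouse. Exons of *Esrra* overlap those of *Trmt112* on the opposite strand and of *Mir6990*. The libraries were stranded but the strand setting of the counting is not given in the sources used here, so reads of *Trmt112* may be counted in it.

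*Esrrb* (ENSMUSG00000021255, chr12:86361117-86521628, plus strand), which encodes ERRβ, was close to the lower end of what could be counted, with 11 to 56 reads per mouse. It lay at 0.985, 2.95, 0.740, 1.32 and 1.42 CPM in Pax7Cre mice and at 0.961, 0.519, 0.916, 1.64 and 1.57 CPM in miR-501KO mice. Its log2 fold change of -0.40 was the largest in size of the 8 (SE 0.382, adjusted p = 1.00, edgeR). It was -0.014 (SE 0.321) when Pax7Cre mouse 2 was left out.

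No difference was detected in the coactivators either. *Ppargc1a* (ENSMUSG00000029167, chr5:51454250-51567726, minus strand) encodes PGC-1α, which responds to exercise and cold and drives mitochondrial biogenesis. It was measured at 19.5, 33.8, 17.7, 16.7 and 21.6 CPM in Pax7Cre mice 1 to 5. The miR-501KO mice had 15.7, 12.5, 20.5, 25.6 and 24.7 CPM. Here 2 miR-501KO mice lay below every control, and 1 control lay above every knockout. Means were 21.9 ± 6.94 CPM in Pax7Cre mice and 19.8 ± 5.68 CPM in miR-501KO mice (SD, n = 5 each, exact two-sided permutation test p = 0.619). This gave a log2 fold change of -0.14 (SE 0.222, 95% interval 0.65-fold to 1.26-fold), and 0.066 (SE 0.181) without Pax7Cre mouse 2. These values of *Esrrg* and *Ppargc1a*, which hold the seed match, lay below those of 5 of the 6 genes that lack it (-0.060 to 0.070) and above that of *Esrrb* (-0.40). Without Pax7Cre mouse 2 they were 0.21 and 0.066, among -0.014 to 0.57 for the 6 genes. Neither difference was tested.

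*Ppargc1b* (ENSMUSG00000033871, chromosome 18, minus strand) encodes PGC-1β, its close relative. It had 8.69, 15.3, 11.6, 12.2 and 15.5 CPM in Pax7Cre mice 1 to 5 and 9.33, 10.2, 13.9, 14.5 and 14.96 CPM in miR-501KO mice. Both genotypes spanned nearly the same range, and the log2 fold change was -0.0080 (SE 0.175), or 0.067 without Pax7Cre mouse 2. *Perm1* (ENSMUSG00000078486, chr4:156215868-156221307, plus strand), a protein of striated muscle induced by PGC-1 and estrogen-related receptors that works with them on their targets, spread far more. In Pax7Cre mice it was 31.5, 99.1, 18.5, 20.3 and 36.9 CPM, and in miR-501KO mice 23.0, 20.4, 43.9, 66.0 and 46.3 CPM. Pax7Cre mouse 2 had 3.70 times the mean of the other controls. On average the genotypes differed by a log2 fold change of -0.047 (SE 0.444), with a 95% interval from 0.50-fold to 1.88-fold. Without Pax7Cre mouse 2 it was 0.57 (SE 0.312, unadjusted p = 0.092, adjusted p = 1.00, edgeR), with the controls between 18.5 and 36.9 CPM. In that fit 1.84% of all genes were higher and 1.28% lower at an unadjusted p under 0.05, and *Perm1* was not among them.

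*Nrf1* (ENSMUSG00000058440, chr6:30047988-30153458, plus strand) held the narrowest range of the 8. It lay at 21.2, 19.2, 21.8, 21.1 and 18.0 CPM in Pax7Cre mice and at 21.6, 20.2, 20.2, 20.9 and 23.4 CPM in miR-501KO mice. Its highest mouse was 1.30 times its lowest. The log2 fold change was 0.070 (SE 0.078), with a 95% interval from 0.93-fold to 1.18-fold, and 0.048 without Pax7Cre mouse 2. *Tfam* (ENSMUSG00000003923, chr10:71225464-71238280, minus strand) was measured at 36.5, 39.0, 39.4, 25.2 and 30.7 CPM in Pax7Cre mice. In miR-501KO mice it stayed between 30.0 and 34.5 CPM, within the range of the controls. Its log2 fold change was -0.060 (SE 0.113), with a 95% interval from 0.81-fold to 1.14-fold, and it was -0.010 without Pax7Cre mouse 2, -0.0029 without Pax7Cre mouse 3 and -0.15 without Pax7Cre mouse 4.

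**Figure D2:**
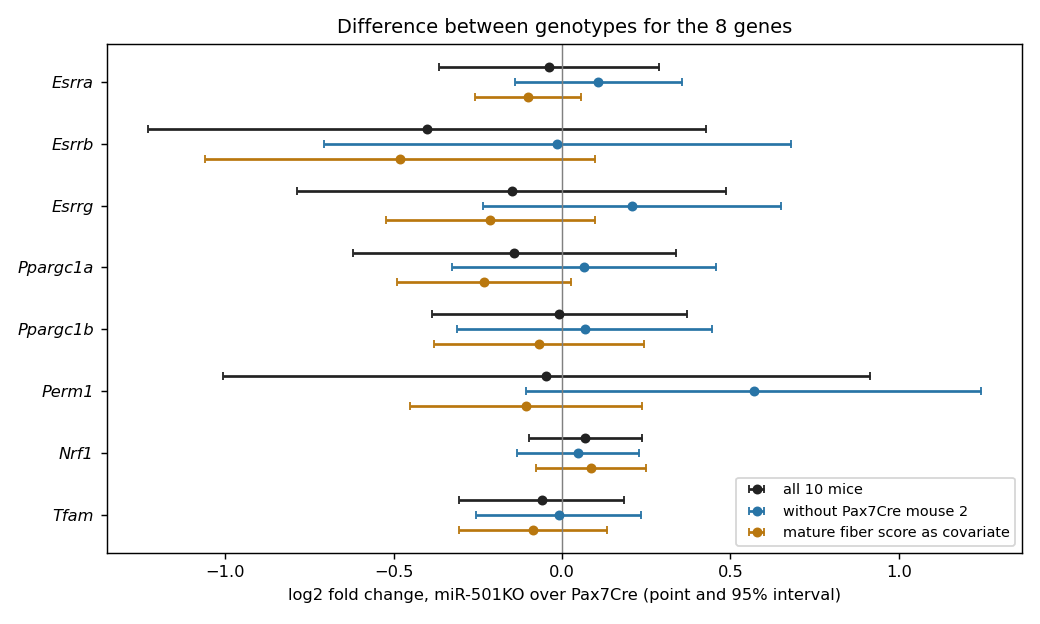
Difference between genotypes for the 8 genes, as the log2 fold change of miR-501KO over Pax7Cre on the horizontal axis, with points for the estimate and bars for the 95% interval. Black is the fit on all 10 mice, blue without Pax7Cre mouse 2, and ochre with the mature fiber score as a covariate. Every interval includes 0, and the estimate of *Perm1* moved from -0.047 to 0.57 when the 1 control was left out.

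Per length of annotated exon, *Perm1* (10.4 ± 6.52 CPM per kb, SD over 10 mice) and *Esrra* (10.2 ± 1.95) stood first. *Perm1* was above *Esrra* in 4 of 10 mice, so these neighbours had no fixed order. *Esrra* lay above *Tfam* (7.54 ± 0.968) in 9 of 10 mice, and *Tfam* lay above *Ppargc1a* in every mouse. The coactivators *Ppargc1a* (3.16 ± 0.922) and *Ppargc1b* (3.16 ± 0.643) had the same mean, with *Ppargc1a* higher in 4 of 10 mice. *Nrf1* followed (2.02 ± 0.145), then *Esrrg* (1.08 ± 0.447) in 9 of 10 mice below it. *Esrrb* was last in every mouse (0.216 ± 0.113). These levels use all annotated exons of a gene, not those of its main transcript.

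Ratios within a library do not depend on how libraries are scaled. The reads of *Esrrg* amounted to 0.108 to 0.212 of those of *Esrra*. The highest ratio was that of Pax7Cre mouse 2 and the lowest that of miR-501KO mouse 2. The mean log2 ratio differed between genotypes by -0.044 (exact two-sided permutation test p = 0.825, n = 5 each). It turned to 0.093 without Pax7Cre mouse 2 and to 0.051 without miR-501KO mouse 2, and was otherwise between -0.13 and -0.019 with 1 mouse left out. *Ppargc1a* had 1.22 to 2.25 times the reads of *Ppargc1b*. Their mean log2 ratio differed by -0.14 (exact two-sided permutation test p = 0.452, n = 5 each), and by -0.22 (without Pax7Cre mouse 4) to -0.043 (without Pax7Cre mouse 1) when 1 mouse was left out. It was -0.049 without Pax7Cre mouse 2 and -0.055 without miR-501KO mouse 2. The groups overlapped in both ratios.

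The 8 genes fell apart in how much they varied within a genotype. On the log2 scale the SD between mice of one genotype was 0.85 for *Perm1*, 0.70 for *Esrrb*, 0.54 for *Esrrg* and 0.42 for *Ppargc1a*. It was 0.33 for *Ppargc1b*, 0.28 for *Esrra*, 0.20 for *Tfam* and 0.10 for *Nrf1*. Among the 3049 genes within 0.5 log2 CPM of its mean level, 99.9% had a smaller SD than *Perm1*. For *Esrrg* and *Ppargc1a* the share was 97.0% in each case, and for *Nrf1* 15.3%. These shares were not computed without Pax7Cre mouse 2. Leaving it out lowered the SD of the controls to 8.84 CPM for *Perm1* (33.2 with it), 1.26 for *Esrrg* (3.71) and 2.16 for *Ppargc1a* (6.94). It also fell for *Esrra*, *Esrrb* and slightly for *Ppargc1b*, and rose slightly for *Nrf1* and *Tfam*. In miR-501KO mice alone the log2 SD was 0.72 for *Perm1*, 0.40 for *Esrrg* and 0.44 for *Ppargc1a*. Pax7Cre mouse 2 was the highest mouse for 5 of the 8 genes, *Esrra*, *Esrrb*, *Esrrg*, *Ppargc1a* and *Perm1*, and miR-501KO mouse 2 the lowest for 3, *Esrrb*, *Esrrg* and *Ppargc1a*.

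Of the 28 pairs of the 8 genes, 13 passed an adjusted permutation p of 0.05 for Pearson's r of log2 CPM over the 10 mice, with adjustment over the 36 relations computed, those of the members with each other and with the mature fiber score. They were all 10 pairs among *Esrra*, *Esrrb*, *Esrrg*, *Ppargc1a* and *Perm1* (r between 0.81 and 0.98), and those of *Ppargc1b* with *Esrra* (r = 0.72), *Esrrg* (r = 0.70) and *Ppargc1a* (r = 0.71). Of all pairs of tested genes, 4.61% had an r at least as high as the lowest of the 13. Pax7Cre mouse 2 was the highest mouse in each of the first 5 genes, and without it 8 pairs passed (exact permutation test over 9 mice, adjusted over the same 36 relations), with r of 0.80 or more, a value reached by 1.55% of all pairs of tested genes. Without that mouse r was between 0.64 and 0.96 among the first 5 genes, and no pair with *Ppargc1b* passed. *Perm1* and *Esrra* were closest (r = 0.98, rho = 0.92, permutation adjusted p = 0.0014 for r and 0.0099 for rho, and r = 0.95 without the 2 mice farthest from the median *Esrra* level). *Esrrg* and *Ppargc1a* had r = 0.89 and rho = 0.88 (permutation adjusted p = 0.0024 and 0.0099), and r = 0.73 without the 2 mice farthest from the median *Esrrg* level. No pair with *Nrf1* or *Tfam* passed over the 10 mice, with r between -0.44 and 0.49 for these 13. All these values come from the same 10 libraries, which share tissue, injury and scaling, and the part of the makeup of the tissue in r was not tested.

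Of the 8 genes, 4 followed the mature fiber score after adjustment, each with r of 0.80 or more. Among the 14386 tested genes outside the score, 7.26% had an r at least as high as the lowest of these 4. *Perm1* had r = 0.93 and rho = 0.93 with it (permutation adjusted p = 0.0017 and 0.0099), and r = 0.90 without Pax7Cre mice 2 and 4, the farthest from the median score. *Esrra* had r = 0.91 and rho = 0.82 (permutation adjusted p = 0.0019 and 0.019), and r = 0.90 without them. For *Esrrg* r was 0.87 and rho 0.83 (permutation adjusted p = 0.0039 and 0.017), and r = 0.88 without them. For *Ppargc1a* r was 0.80 and rho 0.81 (permutation adjusted p = 0.016 and 0.020), and r = 0.68 without them. Leaving out Pax7Cre mouse 2 alone gave r = 0.64 for *Ppargc1a*, which no longer passed (exact permutation p = 0.062). With adjustment over the 36 relations, *Perm1* and *Esrra* passed without that mouse (adjusted p = 0.029 for both in the exact permutation test) and *Esrrg* did not (r = 0.73, adjusted p = 0.086), where 2.61% of the tested genes outside the score had an r at least as high as that of *Esrra* (0.82). *Esrrb* (r = 0.68, rho = 0.67, permutation adjusted p = 0.064 and 0.070) and *Ppargc1b* (r = 0.61, rho = 0.72, permutation adjusted p = 0.10 and 0.051) did not pass the adjustment. For *Nrf1* r was -0.34 and rho -0.42 (permutation adjusted p = 0.44 and 0.33), and for *Tfam* r was 0.50 and rho 0.25 (permutation adjusted p = 0.23 and 0.59). In *Tfam* the sign turned without the farthest mice, to r = -0.40.

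**Figure D3:**
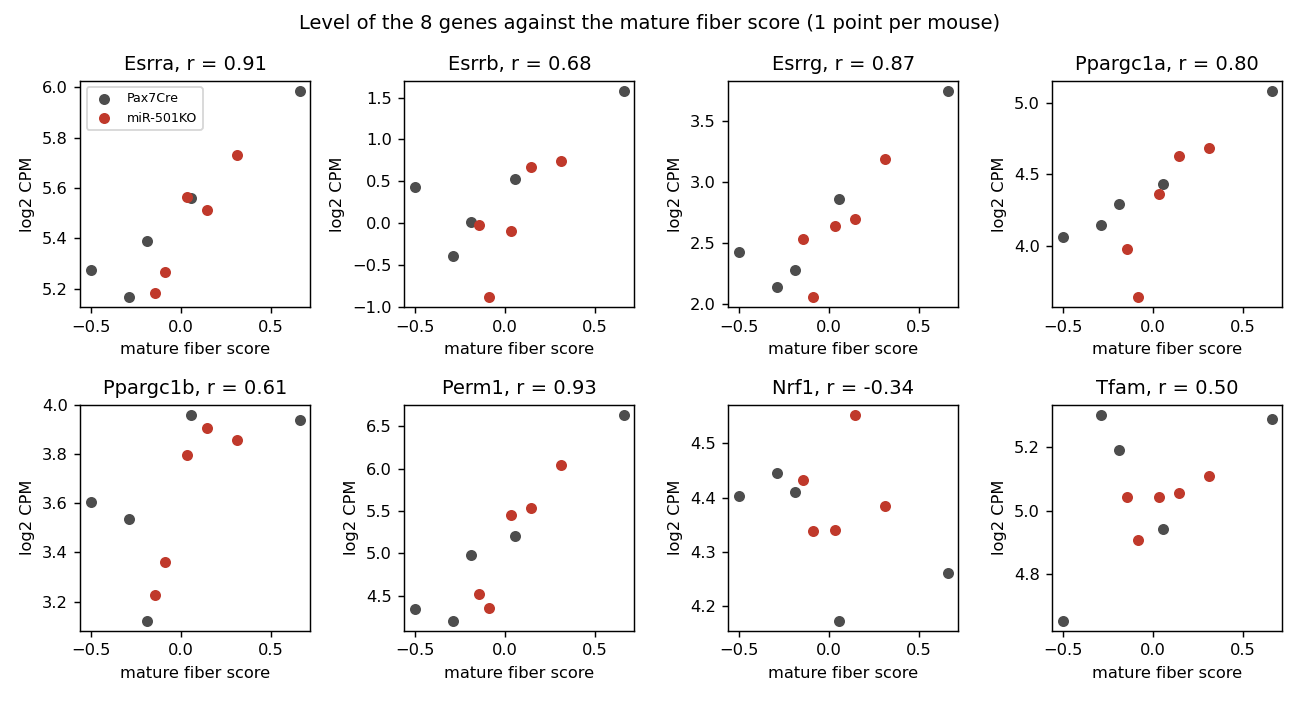
Log2 CPM of each of the 8 genes (vertical axis) against the mature fiber score (horizontal axis, mean centred log2 CPM of 24 adult fiber genes), 1 point per mouse, Pax7Cre in grey and miR-501KO in red. *Perm1* (r = 0.93) and *Esrra* (r = 0.91) rise with the score in mice of both genotypes, and *Nrf1* (r = -0.34) does not. The point at a score of 0.66 is Pax7Cre mouse 2.

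With the score as a covariate the standard errors shrank and no member passed. The log2 fold change of *Perm1* was then -0.11 (SE 0.160, against 0.444 without the covariate). That of *Esrrg* was -0.21 (SE 0.144), and that of *Ppargc1a* was -0.23 (SE 0.120, unadjusted p = 0.076, adjusted p = 1.00, edgeR). The adjusted p of *Esrra* was also 1.00 in this fit, with a log2 fold change of -0.10 (SE 0.073).

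The genes whose pattern over the 10 mice was most like that of a member, by Pearson's r of log2 CPM among all genes tested, were read off for 3 of the 8. For *Esrrg* they were *Unc45b*, a chaperone of muscle myosin (r = 0.97), *Iars2*, which charges mitochondrial tRNA (r = 0.96), *Usp4* (r = 0.96), *Ppm1l* (r = 0.96) and *Clip1* (r = 0.96). For *Ppargc1a* they were *Pccb*, a subunit of propionyl-CoA carboxylase (r = 0.97), *Slc16a1*, a lactate transporter (r = 0.97), *Afg3l2*, a protease of the inner mitochondrial membrane (r = 0.97), *Clip4* (r = 0.97) and *Dhrs11* (r = 0.96). For *Perm1* they were *Pptc7*, a mitochondrial phosphatase (r = 0.99), *Pgam2* (r = 0.98), *Fitm2* (r = 0.98), *Pfkm* (r = 0.98) and *Lynx1* (r = 0.98). *Pgam2* and *Pfkm* are glycolytic enzymes of muscle and are also among the 24 genes of the mature fiber score. These 15 genes had an r of 0.90 or more also without Pax7Cre mouse 2. They were picked for the highest r over mice that include the other 9, so this is no separate check. In the order for *Perm1*, *Esrra* was number 9, *Ppargc1a* 176, *Esrrg* 184, *Esrrb* 758 and *Ppargc1b* 1731. In the order for *Esrrg*, *Esrra* was number 69, *Perm1* 74, *Esrrb* 95, *Ppargc1a* 186 and *Ppargc1b* 1362, and in that for *Ppargc1a* the other 4 of these genes were between 51 and 127 and *Ppargc1b* was 1084. *Tfam* and *Nrf1* came after them in all 3 orders, at 2709 or later.

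In the 10 lists of partners, inputs and targets, 168 of 176 genes were tested and none passed an adjusted p of 0.05 (0% of all genes). None reached an unadjusted p under 0.05 either, where 0.382% of all genes were higher and 0.666% lower. Without Pax7Cre mouse 2, 9 of the 168 did (5.36%), all of them higher, where 1.84% of all genes were higher, and none passed an adjusted p of 0.05 (edgeR). They were *Rxrg*, *Prkag3*, *Camk2a*, *mt-Nd6*, *Cox6a2*, *Myh2*, *Myl3*, *Mb* and *Slc2a4*, of which *Camk2a*, *mt-Nd6*, *Myl3* and *Slc2a4* are named after their values were seen. The mouse left out is the control with the highest mature fiber score and mitochondrial share. The common direction of these 9 genes is therefore no separate result about genotype. Among partner nuclear receptors, 4 of 12 tested genes had a positive and 8 a negative log2 fold change, with a median of -0.042 beside -0.0042 over all genes. With 1 mouse left out this median lay between -0.083 (without Pax7Cre mouse 1) and -0.010 (without Pax7Cre mouse 2), and it was -0.012 without miR-501KO mouse 1 and -0.020 without Pax7Cre mouse 5. *Ppara*, the fatty acid sensor that shares targets with the estrogen-related receptors, had 2.27 ± 1.17 CPM in Pax7Cre mice and 1.58 ± 0.496 CPM in miR-501KO mice (SD, n = 5 each), with a log2 fold change of -0.52 (SE 0.326), and of -0.19 without Pax7Cre mouse 2. *Rxrg*, a partner of other nuclear receptors, had one of 0.20 (SE 0.150), with 21.8 ± 5.73 and 25.0 ± 2.76 CPM, and one of 0.36 without that mouse (unadjusted p = 0.0052, adjusted p = 1.00, edgeR).

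Among coregulators 13 of 17 were positive, with a median of 0.038 that lay between -0.0021 (without Pax7Cre mouse 3) and 0.077 (without Pax7Cre mouse 5) when 1 mouse was left out. *Sirt1*, the deacetylase of PGC-1α, had the smallest p of all 10 lists, with 12.0 ± 0.494 CPM in Pax7Cre mice and 13.4 ± 0.933 CPM in miR-501KO mice (SD, n = 5 each) and a log2 fold change of 0.15 (SE 0.079, unadjusted p = 0.081, adjusted p = 1.00, edgeR). *Nrip1*, a corepressor of the estrogen-related receptors, was at 0.038 (SE 0.108) on the same scale, and at 0.082 without Pax7Cre mouse 2. *Pprc1*, the third member of the PGC-1 family, was at 0.14 (SE 0.158), and at 0.055 without that mouse. *Prox1*, which represses with ERRα, was at -0.083 (SE 0.077). Among 18 upstream inputs, kinases, calcium signalling enzymes and factors that act on *Ppargc1a*, 11 were positive. *Prkag3*, the AMPK subunit of fast fibers, had a log2 fold change of 0.32 (SE 0.191), or 0.49 without Pax7Cre mouse 2, and *Nos1*, which makes nitric oxide at the fiber membrane, one of -0.43 (SE 0.403), or -0.21 without it.

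Of 17 genes that copy or transcribe mitochondrial DNA, 7 were positive and 10 negative, with a median of -0.043. Without Pax7Cre mouse 2, 10 were positive and 7 negative, with a median of 0.012, and the median also turned without Pax7Cre mouse 3, to 0.00090. *Gabpa*, the ETS factor upstream of *Tfam*, was at 50.7 ± 1.88 CPM in Pax7Cre mice and 51.7 ± 3.08 CPM in miR-501KO mice (SD, n = 5 each). In this list *Mgme1*, a nuclease of mitochondrial DNA, had a log2 fold change of -0.11 (SE 0.104) and *Mterf1b*, with 8 to 25 reads per mouse, one of 0.28 (SE 0.294). Of 13 protein genes of the mitochondrial genome only 7 could be tested, since the other 6 had 0 to 2 reads in every mouse. All 7 were positive, with a median of 0.054, which was 0.27 without Pax7Cre mouse 2, -0.091 without Pax7Cre mouse 4 and -0.030 without miR-501KO mouse 4, and *mt-Cytb* had a log2 fold change of 0.083 (SE 0.250), or 0.29 without Pax7Cre mouse 2. Their summed level was 58173 to 158141 CPM in Pax7Cre mice and 98980 to 135186 CPM in miR-501KO mice, with the lowest and the highest mouse both among the controls.

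Targets in fatty acid oxidation leaned one way over the 10 mice and the other without Pax7Cre mouse 2. Of 24 genes 22 had a negative log2 fold change, with a median of -0.070, beside -0.0042 over all genes. With Pax7Cre mouse 2 left out, 5 of 24 were negative and the median was 0.053, beside -0.0029. The median was -0.15 without Pax7Cre mouse 4, which had the lowest mature fiber score (-0.50) and the lowest mitochondrial share (6.59%), and also -0.15 without miR-501KO mouse 4. It was -0.034 without miR-501KO mouse 1 and -0.035 without miR-501KO mouse 2. *Cpt1b*, the muscle enzyme that admits long fatty acids to mitochondria, had 122 ± 42.2 CPM in Pax7Cre mice and 111 ± 33.1 CPM in miR-501KO mice (SD, n = 5 each). Its log2 fold change was -0.14 (SE 0.239), and 0.068 without Pax7Cre mouse 2. *Acadm*, a classic target of ERRα, was at -0.039 (SE 0.199), and at 0.18 without the same control. *Pdk4*, which turns off pyruvate oxidation, was at 0.051 (SE 0.320) and at 0.027 without it, with 39.9 to 156 CPM among miR-501KO mice. *Lipe* was at -0.16 (SE 0.110) and *Slc25a20* at 0.049 (SE 0.127), against -0.092 and 0.15 without it.

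The citric acid cycle (17 of 22 negative, median -0.042) and the respiratory chain (19 of 24 negative, median -0.032) did likewise. Without Pax7Cre mouse 2, 1 of 22 and 0 of 24 were negative, with medians of 0.14 and 0.12. Without Pax7Cre mouse 4 the medians were -0.14 and -0.15, and without miR-501KO mouse 4 they were -0.098 and -0.079. Without miR-501KO mouse 1 they were -0.0068 and -0.0079, and without miR-501KO mouse 2 they were 0.0043 and -0.019. In mitochondrial dynamics and import, 7 of 12 were negative with a median of -0.0070, and 0 of 12 with a median of 0.099 when Pax7Cre mouse 2 was left out. The median of this list was 0.0068 without miR-501KO mouse 1, 0.020 without miR-501KO mouse 2 and -0.073 without Pax7Cre mouse 4. *Cs*, citrate synthase, had a log2 fold change of 0.038 (SE 0.147), and 0.17 without Pax7Cre mouse 2. *Mdh2* was at 0.046 (SE 0.142) and, without that mouse, at 0.17, and *Idh2* was at -0.13 (SE 0.074) and -0.12. *Cycs*, cytochrome c, was at -0.11 (SE 0.235), *Uqcrfs1* of complex III at -0.11 (SE 0.192), and *Cox6a2*, the muscle form of a complex IV subunit, at 0.082 (SE 0.214). These 3 values were 0.098, 0.096 and 0.33 without Pax7Cre mouse 2, so *Cycs* and *Uqcrfs1* changed sign. *Timm50* and *Immt*, of the import machinery and the cristae, were at 0.044 (SE 0.091) and -0.090 (SE 0.150), and at 0.11 and 0.044 without it. Summed over the respiratory chain genes, Pax7Cre mice had 7195 to 15204 CPM, with Pax7Cre mouse 2 on top, and miR-501KO mice 9478 to 11801 CPM.

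Among 15 genes of oxidative fibers, 8 were positive and 7 negative, with a median of 0.024. It was 0.10 without Pax7Cre mouse 2, -0.033 without Pax7Cre mouse 4 and -0.058 without miR-501KO mouse 4. *Mb*, myoglobin, had 1052 ± 808 CPM in Pax7Cre mice and 1087 ± 519.9 CPM in miR-501KO mice (SD, n = 5 each), with a log2 fold change of 0.048 over all mice and 0.64 without Pax7Cre mouse 2. *Ckmt2*, the creatine kinase of muscle mitochondria, had 544 ± 379 and 532 ± 174 CPM, with a log2 fold change of -0.031 that turned to 0.48 without that mouse. *Myh2*, the fast oxidative myosin, had 390 CPM in Pax7Cre mouse 2 and at most 118 CPM in the other controls, against 80.8 to 256 CPM in miR-501KO mice. Its log2 fold change was 0.19 (SE 0.517) with that mouse and 1.01 without it (unadjusted p = 0.011, adjusted p = 1.00, edgeR). *Myh7*, the slow myosin, was low, with 1.85 to 3.69 and 1.85 to 4.16 CPM. *Vegfa*, an angiogenic target of PGC-1α and ERRα, was at -0.059 (SE 0.222), *Fhl2* at 0.26 (SE 0.176) and *Atp2a2* at -0.067 (SE 0.120). *Vegfa* turned to 0.21 without Pax7Cre mouse 2, where *Fhl2* was at 0.10 and *Atp2a2* at -0.13.

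**Figure D4:**
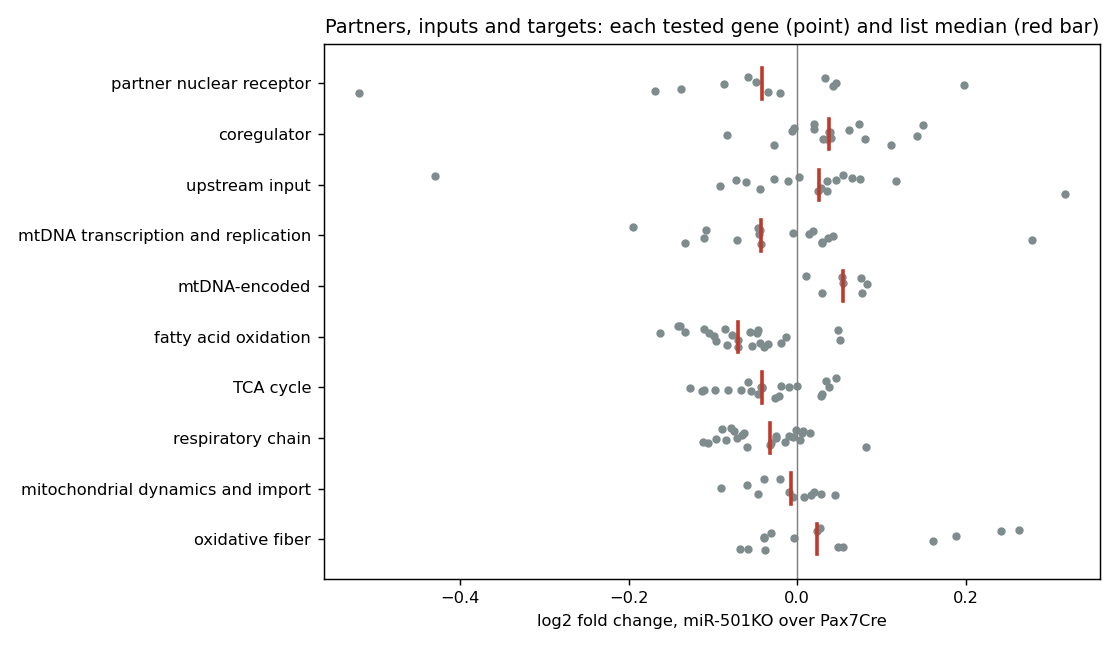
Log2 fold change of miR-501KO over Pax7Cre (horizontal axis) for each tested gene of the 10 lists of partners, inputs and targets (rows), with a red bar at the list median. Medians lie between -0.070 (fatty acid oxidation) and 0.054 (genes of the mitochondrial genome), beside -0.0042 over all genes, and no gene passed the test.

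Markers of other cells were set beside these values. None of the tested markers passed an adjusted p of 0.05, with medians of the log2 fold change of 0.038 for 24 mature fiber genes, 0.041 for 10 regenerating fiber genes, 0.039 for 6 satellite cell genes and 0.016 for 10 macrophage genes. The medians were -0.060 for 8 endothelial, -0.056 for 8 fibro-adipogenic progenitor and -0.17 for 7 adipocyte genes. When Pax7Cre mouse 2 was left out, 24 of 24 mature fiber genes were positive (18 of 24 with it), with a median of 0.28, and 8 of them had an unadjusted p under 0.05, where 1.84% of all genes were higher (edgeR). That mouse was set apart by its high level of these same 24 genes. Their rise without it follows from the choice of mouse and is no result about genotype. In the fit without this mouse 9 of 10 regenerating fiber genes were negative (3 of 10 with the mouse), with a median of -0.060, and 9 of 10 macrophage genes were negative (3 of 10 with it), with a median of -0.043. There 1 macrophage and 1 satellite cell gene were lower at an unadjusted p under 0.05, where 1.28% of all genes were lower (edgeR). The medians were then 0.0053 for satellite cell, 0.0011 for endothelial, -0.039 for fibro-adipogenic progenitor and -0.19 for adipocyte genes. Summed levels of regenerating fiber genes were 5406 to 7864 CPM in Pax7Cre mice, lowest in Pax7Cre mouse 2, and 5376 to 7812 CPM in miR-501KO mice. Those of satellite cell genes were 2571 to 3683 and 3024 to 3721 CPM, and those of macrophage genes 6204 to 8246 and 6317 to 7466 CPM. Those of endothelial genes were 742 to 949 and 754 to 919 CPM, those of fibro-adipogenic progenitor genes 14103 to 18965 and 14968 to 18089 CPM, and those of adipocyte genes 195 to 370 and 225 to 330 CPM. No listed marker was at 0 in all mice, and the lowest was *Ucp1*, of brown fat, with 0 to 3 reads. The part of these cells in the levels of the 8 genes was not tested.

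The promoters of the members were searched for elements of their own network, in 250 bases before and 50 after each annotated start (RefSeq, GRCm38.p6, both strands). *Ppargc1b* was not searched. The estrogen-related receptor element, TNAAGGTCA, occurs in 1.28% of 32851 such promoters and was not found in the windows of the other 7 genes. The NRF1 element, searched as a motif of 10 letters rich in G and C, occurs in 4.60% of promoters and was not found in those windows either, that of *Tfam* included. The E-box CAGCTG occurs in 16.3% of promoters, and was found in those of *Esrra* and *Esrrb*. The GABPA element, CCGGAAG, occurs in 8.86% of promoters and was found in *Tfam*, printed here in capitals with its surroundings because *Tfam* is the textbook target of that factor (chr10:71238070-71238106, minus strand, the element beginning 47 bases before the RefSeq start, which lies 236 bases inside the gene as GENCODE M21 draws it, so that the element is 189 bases after the GENCODE start).
*Tfam* promoter: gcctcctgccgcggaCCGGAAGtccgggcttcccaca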

How the data were processed

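Per the labels, TA muscle of 10 mice was sequenced from stranded mRNA libraries as single-end reads of 100 bases. The authors aligned the reads with STAR to GRCm38.p5 and deposited raw counts per gene, without normalization (STAR, featureCounts and R 3.5.1 are listed in the submitters' processing notes). The strand setting and the treatment of multi-mapping reads are not given in the sources used here. Of 25700 Ensembl identifiers, 25664 were named by GENCODE M21, and 5846 genes had no read.

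The 8 members and all lists were chosen with earlier results of these data known. TMM factors came from edgeR 4.0.16 (R 4.3.3). Its filterByExpr, set to a minimum count of 10 and a minimum total of 15, kept 14410 genes, and 5 mice were compared with 5 by the quasi-likelihood test. Log2 CPM used a prior count of 0.5. Tested on simulated data for this comparison, with 200 of 14410 genes changed, it recovered 90% of 2-fold and 98% of 4-fold changes with 2.08% false calls. The changed genes were drawn at random and varied independently of each other. These shares are therefore not the power for the 8 genes, of which *Perm1*, *Esrrg* and *Ppargc1a* varied more than most genes of their level. Single genes and ratios had exact two-sided permutation tests over 252 assignments (smallest possible p 0.00794), and correlations 100000 permutations with Benjamini-Hochberg adjustment over 36 relations (SciPy 1.17.1, NumPy 2.4.6). Depth was 18609222 to 24753258 counts per mouse, and mice of a genotype differed by more than counting noise (chi-square per degree of freedom at least 9.47). Nothing in the labels names a batch.

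Genes named besides the 8 were the gene of smallest p in each direction of each list, the 5 genes most like *Esrrg*, *Ppargc1a* and *Perm1*, and 14 well-known partners and targets. *Ucp1*, as the lowest marker, and 4 genes of the lists were named after their values were seen. Alternatives were DESeq2's size factors and Wald test (DESeq2 1.42.0), other filters, robust empirical Bayes, a likelihood ratio test, a replicate block, the mature fiber score as covariate, a threshold of 0.01, and leaving out each mouse. Adjusted correlations without Pax7Cre mouse 2 were added after seeing the data.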

Additional observations from a re-analysis of the deposited data

Results flagged for a closer look

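Of 22 sets of 5 mice searched with Dixon's test at the 95% level, 2 had a mouse far from the rest, where chance alone gives about 1.1. Both were Pax7Cre mouse 2. *Perm1* lay at 99.1 CPM in it, and at 18.5 to 36.9 CPM in the other Pax7Cre mice, a gap of 0.772 of the whole range. *Ppargc1a* lay at 33.8 CPM, and at 16.7 to 21.6 CPM in the others, a gap of 0.714. It was also the mouse with the top mature fiber score (0.66) and the top share of mitochondrial reads (14.0%). The part of either in the levels of *Perm1* and *Ppargc1a* was not tested.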

How the results depend on the processing

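No gene was called in the edgeR quasi-likelihood test or in any of its 18 alternatives, nor at a threshold of 0.01. Genes at an unadjusted p under 0.05 numbered 151 in that test, 150 with DESeq2's Wald test, 312 without a filter, 488 with the mature fiber score as covariate, and 98 to 470 with 1 mouse left out (453 without Pax7Cre mouse 2, 470 without Pax7Cre mouse 4 and 98 without miR-501KO mouse 1). All 144 alternative values of the 8 log2 fold changes had an adjusted p of 0.996 or more, and 13 changed sign. Leaving out each mouse in turn gave ranges of -0.11 to 0.11 for *Esrra*, -0.31 to 0.21 for *Esrrg*, -0.25 to 0.066 for *Ppargc1a*, -0.12 to 0.084 for *Ppargc1b* and -0.30 to 0.57 for *Perm1*, and of -0.56 to -0.014 for *Esrrb*, 0.030 to 0.097 for *Nrf1* and -0.15 to -0.0029 for *Tfam*, which kept their sign. In CPM the ranges of the difference were -3.57 to 3.27 for *Esrra*, -0.550 to 0.0040 for *Esrrb*, -1.40 to 0.882 for *Esrrg*, -3.52 to 0.928 for *Ppargc1a*, -1.07 to 0.735 for *Ppargc1b* and -7.86 to 13.1 for *Perm1*, and on the log2 CPM scale the *Perm1* difference was 0.11, against -1.35 CPM. The log2 ratio of *Esrrg* to *Esrra* ranged from -0.13 to 0.093. Correlations with the mature fiber score ranged from 0.39 to 0.87 for *Esrrb*, 0.64 to 0.93 for *Ppargc1a*, 0.55 to 0.71 for *Ppargc1b* and 0.19 to 0.76 for *Tfam*. In exact permutation tests over 9 mice, that of *Esrrb* missed p = 0.05 without Pax7Cre mouse 2 or 3 or miR-501KO mouse 4 or 5, that of *Ppargc1a* without Pax7Cre mouse 2, and those of *Ppargc1b* and *Tfam* passed it without Pax7Cre mouse 4 and 3, respectively. Of the 13 sign changes of the log2 fold changes, that of *Perm1* under the replicate block was 1, and the others came without Pax7Cre mouse 2 for *Esrra*, *Esrrg*, *Ppargc1a*, *Ppargc1b* and *Perm1*, without miR-501KO mouse 1 or 2 for *Esrra*, *Ppargc1b* and *Perm1* as well, and without Pax7Cre mouse 5 for *Ppargc1b*. The number of pairs of members that passed fell from 13 to 8 without Pax7Cre mouse 2, an alternative chosen after seeing the data. The cause was not tested.

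Correlations of same-numbered deviations were between -0.28 and 0.32. They gave no clear sign that equal mouse numbers pair the mice, and so few pairs cannot exclude it. With the replicate block the log2 fold change of *Perm1* was 0.15, that of *Esrrg* -0.057 and that of *Ppargc1a* -0.13, 189 genes had an unadjusted p under 0.05, the list medians were 0.0062 for the respiratory chain, -0.00057 for the citric acid cycle, 0.0053 for mitochondrial dynamics and import, 0.14 for oxidative fibers and 0.12 for mtDNA-encoded genes, and 2 of 5 Pax7Cre mice correlated best with their own number. Depth limits *Esrrb*, with 11 to 56 reads per mouse, more than the other 7 genes.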
